A study of Sus scrofa with 8 samples.

Results

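Heart RNA was compared between Tibetan pigs kept at 100 m (TL, libraries TL1 and TL2) and Yorkshire pigs kept at 3000 m (YH, libraries YH1 and YH2), so that each breed was away from the altitude it is usually associated with. These are 4 of the 8 libraries of the series, and the others are Tibetan pigs at 3000 m (TH, 2 libraries) and Yorkshire pigs at 100 m (YL, 2 libraries). All animals were labelled male and 6 months old, and each library held RNA of 4 pigs pooled before sequencing. A gene entered the comparison with a level of at least 1 FPKM (fragments per kilobase of exon, scaled to the fragments mapped in a library) and at least 10 scaled reads in at least 2 of the 4 libraries, which left 11064 of 18975 listed genes. TL and YH differ in breed and in altitude at once, and the site where the pigs were raised goes with the altitude, so in this comparison these cannot be told apart. TH and YL, which share no library with TL or YH, differ by the same breeds at the exchanged altitudes, and their levels are given beside the results for that reason.

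The depth was similar across the 4 libraries, from 18212623 to 22800129 reads on genes. Cardiac troponin transcripts were abundant in each of the 4, with TNNT2 between 4718 and 5458 FPKM, and none of the 14 kidney or 6 lung markers listed in the table passed the filter. One library outside the comparison, YL2, stood apart: the kidney markers summed to 4782 FPKM there against at most 17.2 FPKM in any other library, so YL is given as YL1 where the library matters. Across genes, log2 levels correlated at 0.988 between the TL pools and at 0.982 between the YH pools, against 0.960 to 0.972 between a TL and a YH pool.

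The heart works without pause and draws most of its energy from fatty acids, which enter the mitochondria through the carnitine shuttle and are burned there, with lipid droplets as a reserve. Immediate early genes, such as FOS and the NR4A receptors, are transcribed within minutes of a mechanical, hormonal or metabolic stimulus and need no new protein for it. Fibroblasts make the collagen network that holds the muscle fibers together, and resident and circulating immune cells bring their own transcripts into a piece of heart tissue.

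A gene was called when the Benjamini-Hochberg adjusted p of limma was under 0.05 and the difference in log2(FPKM + 1) was over 1. By this rule, 55 genes (0.497% of those tested) were higher and 57 genes (0.515%) lower in TL than in YH. Of the 55, 48 had a gene symbol, as had 40 of the 57. The median size of the difference was 1.48 on the log2 scale over the called genes and 0.207 over all genes tested. The levels of the TL and YH pools did not overlap, with TL higher, in 2983 genes (27.0%) and, with TL lower, in 3116 genes (28.2%), shares against which the counts of the gene lists below are to be read. Counts of list members called are likewise to be read against the 0.497% and 0.515% of all genes called. With 2 pools a group an exact permutation test cannot go below a p of 0.333, so calls rest on limma's pooled estimate of the spread, and p-values measure the spread between pools rather than between pigs. Scaling each library to the same FPKM sum moved the median difference of all genes from -0.0057 to -0.239 and turned the split of calls to 27 higher and 132 lower in TL, or 17.0% higher against 49.1% in the values as deposited. Without YH2, 27 genes were called, and 22 of the 112 remained called when each of the 4 libraries was left out in turn. The named genes among these 22 were ACTC1, ATF3, BCHE, DDC, DHRS4, FGF7, FOS, MMP11, NOR-1, NREP, OTUD1, PLIN2, SLC25A34, SLPI, TMEM163 and TNNT1. A fit with limma voom of the reads behind the values, chosen after seeing the data, called 44 genes, 41 of them among the 112. Of genes described below, PLIN2, TNNT1, NOR-1, ATF3, SLPI, ACTC1, CD3E and COL15A1 passed in it, while FOS (adjusted p 0.0852), NR4A1 (0.0528), IER5 (0.144), COL3A1 (0.0522), COL1A2 (0.0528), UCP2 (0.0635), NKG7 (0.0628), CD86 (0.0636), SLA-5 (0.0689), CFI (0.0603), FHL2 (0.0636), CLU (0.0603), MCT7 (0.0628), OTUD1 (0.0528), GABARAPL1 (0.0603), GCLM (0.0636), DPP4 (0.0572), BCHE (0.0603), CTSW (0.0603), TRBC2 (0.0628), PTPRCAP (0.0682), RAC2 (0.0603), IGLV-11 (0.0901), DDX3Y (0.0636), APOA1 (0.0639) and RPSA (0.0628) did not, all with the same sign.

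**Figure D1:**
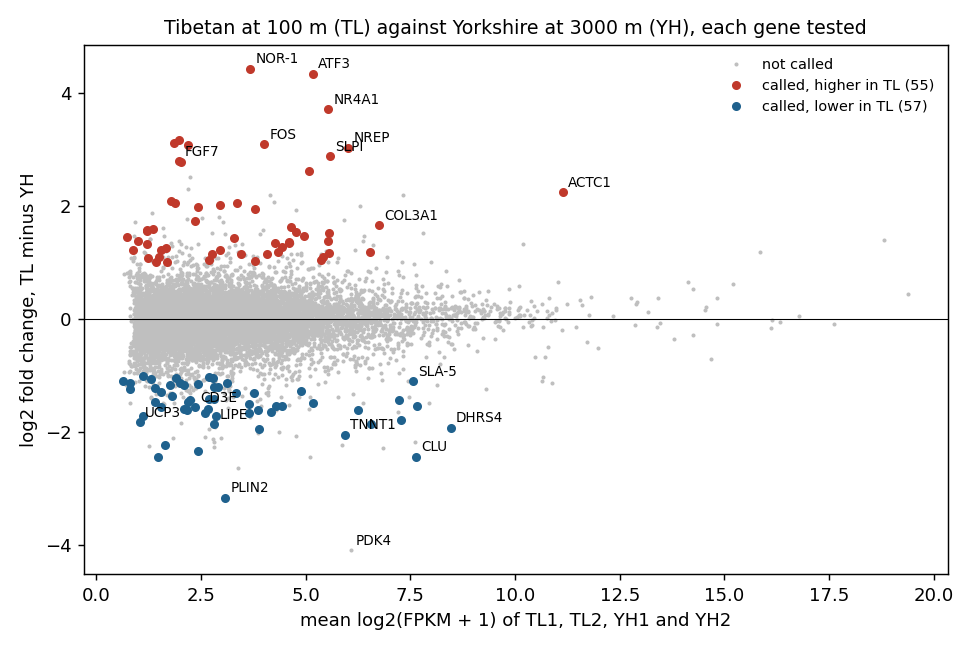
Difference between TL and YH in log2(FPKM + 1) (vertical axis) against the mean log2(FPKM + 1) of the 4 libraries (horizontal axis), 1 point per gene, with the genes called higher or lower in TL colored. The 112 called genes lie on both sides in nearly equal number, 55 above and 57 below.

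Several immediate early genes were far higher in the Tibetan pigs at low altitude than in the Yorkshire pigs at high altitude. Of 33 genes of the list that passed the filter, 5 were called higher in TL (0.497% of all genes) and none lower (0.515% of all genes). Of the 33, 32 had a positive difference, and the median was 1.02 on the log2 scale against -0.0057 over all genes tested. Under scaling to the FPKM sum it was 0.61, against -0.239 over all genes. TL was above YH without overlap in 25 of the 33 (27.0% of all genes). EGR2 passed the filter through TL alone, and over the other 32 the count was 24 and the median 1.05. The summed level of the list was 1952 and 1671 FPKM in the TL pools and 514 and 723 FPKM in the YH pools. It was 1857 and 1786 FPKM in TH, within the range of TL, and 626 FPKM in YL1, within the range of YH.

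The nuclear receptor NOR-1 (ENSSSCG00000005385, NR4A3, chr1:269817144-269852707 of Sscrofa10.2), an orphan receptor and transcription factor, had the largest difference on the log2(FPKM + 1) scale, while TMEM163 and DDC exceeded it by the ratio of mean FPKM. It was at 44.6 and 77.1 FPKM in TL and at 1.56 and 1.97 FPKM in YH, a log2 difference of 4.44 (SE 0.27, adjusted p 0.0112). Its levels in TH, 1.15 and 6.39 FPKM, and in YL, 12.2 and 3.04 FPKM, were all below those of the TL pools. ATF3 (ENSSSCG00000015595, chr9:143690555-143703872), a transcription factor of the stress response, was at 144 and 180 FPKM in TL and 5.24 and 9.16 FPKM in YH, a log2 difference of 4.35 (SE 0.26, adjusted p 0.0112). For both genes the TL pools lay far above the YH pools, and for ATF3 the TH pools, the lower of them at 38.8 FPKM, lay between them.

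NR4A1, the sister receptor of NOR-1, differed between the TL pools themselves, with 266 and 106 FPKM, and was at 10.3 and 13.6 FPKM in YH. The log2 difference was 3.72 (SE 0.43, adjusted p 0.0344), and the call was lost without either YH pool. The third family member, NR4A2, had 20.9 and 4.82 FPKM in TL and 0.926 and 1.01 FPKM in YH, and did not pass (adjusted p 0.0993).

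FOS (ENSSSCG00000002383, chr7:104293656-104297121), a subunit of the AP-1 transcription factor, was at 50.9 and 42.0 FPKM in TL and 3.40 and 5.91 FPKM in YH, a log2 difference of 3.10 (SE 0.24, adjusted p 0.0177). Its reads were 10202 in TL1 and 2334 in TL2, so that the TL pools were further apart in reads than in FPKM, and 166 and 354 in YH. IER5, an immediate early nuclear protein, was at 35.6 and 40.0 FPKM in TL against 12.5 and 16.3 FPKM in YH (log2 difference 1.34, SE 0.17, adjusted p 0.0403), and lost its call without TL1, TL2 or YH2 and under scaling to the FPKM sum. The TL pools of both genes stood apart from the YH pools.

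Other abundant genes of the list did not pass the test. The phosphatase DUSP1, which shuts off MAP kinases, was at 155 and 115 FPKM in TL and 42.7 and 60.1 FPKM in YH (adjusted p 0.0565). EGR1, a zinc finger transcription factor, was at 45.6 and 30.5 FPKM against 4.58 and 11.5 FPKM (adjusted p 0.0674), and CTGF, a matricellular protein, at 81.2 and 151 FPKM against 29.7 and 34.7 FPKM (adjusted p 0.0604). In all 3, the TL and YH pools did not overlap. SOCS3, an inhibitor of cytokine signaling, was the only member of the 33 with a negative difference, at 2.21 and 1.19 FPKM in TL and 2.23 and 7.42 FPKM in YH (adjusted p 0.294).

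**Figure D2:**
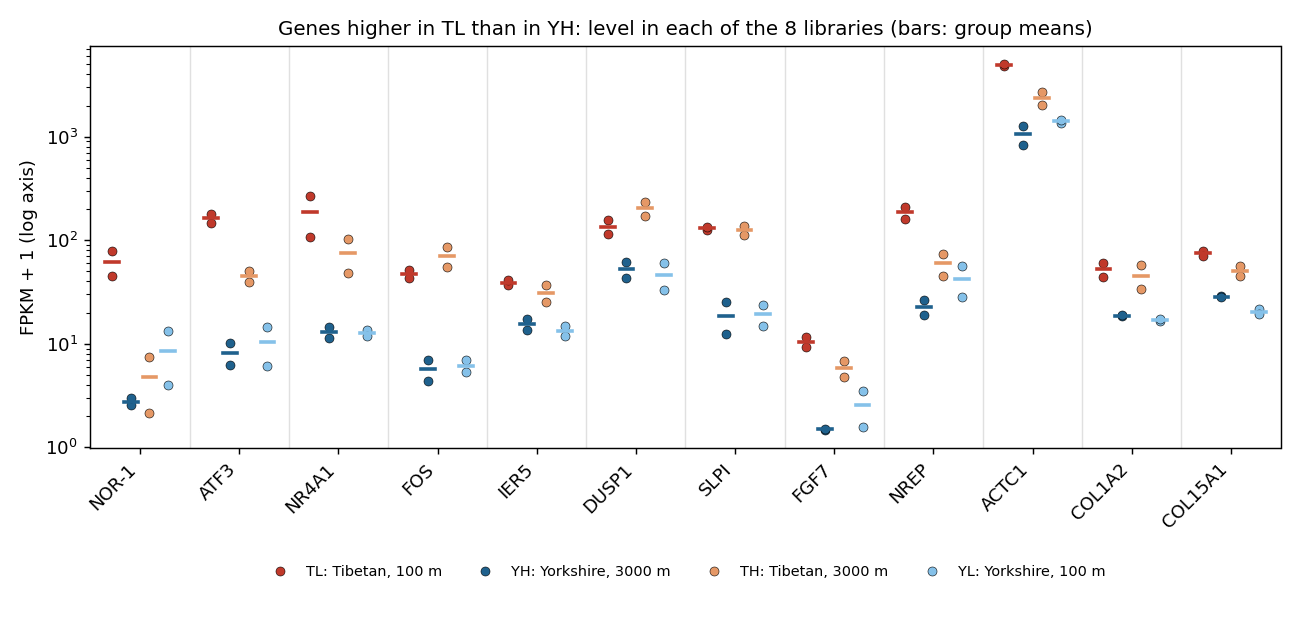
FPKM + 1 on a log axis of genes with higher values in TL, 1 point per library, for TL, YH, TH and YL, with bars at the group means. The points of TL lie above those of YH for each gene drawn, and DUSP1 is drawn although it did not pass the test (adjusted p 0.0565).

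PLIN2, UCP3, UCP2 and ANGPTL4, members of a list of fatty acid uptake and oxidation, were lower in TL than in YH. Of 36 genes of this list that passed the filter, these 4 were called lower in TL (0.515% of all genes) and none higher (0.497% of all genes). Of the 36, 26 were lower in TL without overlap between the groups (28.2% of all genes) and 5 were higher (27.0% of all genes). The median difference was -0.47 on the log2 scale (-0.79 under scaling to the FPKM sum). UCP3 passed the filter through YH alone, and over the other 35 genes, 25 were lower in TL without overlap, 6 had both YH pools above the other 6 libraries, and the median was -0.43. With UCP3 counted, in 7 of the 36 both TL pools were below the other 6 libraries of the series, against 3.72% of all genes tested, and in 7, both YH pools were above the other 6, against 7.28%.

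The lipid droplet coat protein PLIN2 (ENSSSCG00000005171, chr1:227334092-227344720), which shields stored triglyceride, was at 1.40 and 2.33 FPKM in TL and 24.6 and 23.9 FPKM in YH. The log2 difference was -3.16 (SE 0.19, adjusted p 0.0112), on 63 and 120 reads in TL against 1093 and 1060 in YH. Its level was 8.45 and 10.1 FPKM in TH and 5.95 FPKM in YL1, so that TL lay below and YH above both. Another gene ID in the table carries the same symbol, and reads may be shared out between the entries. PLIN5, the droplet protein that contacts mitochondria, was at 3.02 and 2.20 FPKM in TL and 14.9 and 6.15 FPKM in YH, and did not pass (adjusted p 0.103).

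The mitochondrial carriers UCP3 and UCP2 were both lower in TL. UCP3, the uncoupling protein of muscle, was at 0.048 and 0.13 FPKM in TL and at 3.08 and 2.63 FPKM in YH (log2 difference -1.82, SE 0.14, adjusted p 0.0177), on 4 and 13 reads in TL against 267 and 276 in YH. UCP2, its widely expressed relative, was at 4.86 and 6.07 FPKM against 13.3 and 16.8 FPKM (log2 difference -1.31, SE 0.18, adjusted p 0.0444), and lost its call without TL1 or YH2. For UCP3 the call was lost without YH2 alone.

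ANGPTL4, a secreted inhibitor of lipoprotein lipase, was at 3.16 and 3.42 FPKM in TL and 11.2 and 9.78 FPKM in YH (log2 difference -1.42, SE 0.14, adjusted p 0.0272), and lost its call without TL1 or YH2. LIPE, the hormone-sensitive lipase that frees fatty acids from stored fat, is from the list of adipocyte markers, and was the only one called of the 5 that passed the filter. It was at 3.36 and 2.12 FPKM in TL and 14.4 and 10.6 FPKM in YH (log2 difference -1.86, SE 0.23, adjusted p 0.0386), and the call was lost without either YH pool. The other 4 adipocyte markers were not called and did not share its sign throughout. The desaturase SCD was at 7.48 and 1.78 FPKM in TL and 0.225 and 0.407 FPKM in YH (adjusted p 0.119), and the fatty acid synthase FASN at 5.80 and 3.38 FPKM against 1.70 and 2.24 FPKM (adjusted p 0.126), both without overlap and with TL above YH. SCD passed the filter through TL alone. The droplet gene PLIN4 was at 8.92 and 9.33 FPKM in TL and 9.24 and 9.02 FPKM in YH.

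PDK4, the kinase that closes pyruvate dehydrogenase when fat is burned, had the most negative difference among the genes ranked for naming but differed between the TL pools and did not pass. It was at 6.50 and 34.7 FPKM in TL, 303 and 253 FPKM in YH, 183 and 154 FPKM in TH and 359 FPKM in YL1 (log2 difference TL against YH -4.09, SE 0.69, adjusted p 0.0602). Both TL pools were below each of the other 6 libraries. The carnitine shuttle genes gave smaller values of the same sign, with CPT1A at 6.26 and 4.79 FPKM in TL and 17.8 and 13.3 FPKM in YH (adjusted p 0.0522) and CPT1B, the muscle form, at 134 and 164 FPKM against 207 and 194 FPKM (adjusted p 0.182). The genes of medium-chain oxidation ACADM and HADH did not share this sign, at 226 and 233 against 237 and 195 FPKM and at 248 and 266 against 215 and 227 FPKM, with adjusted p of 0.747 and 0.370.

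**Figure D3:**
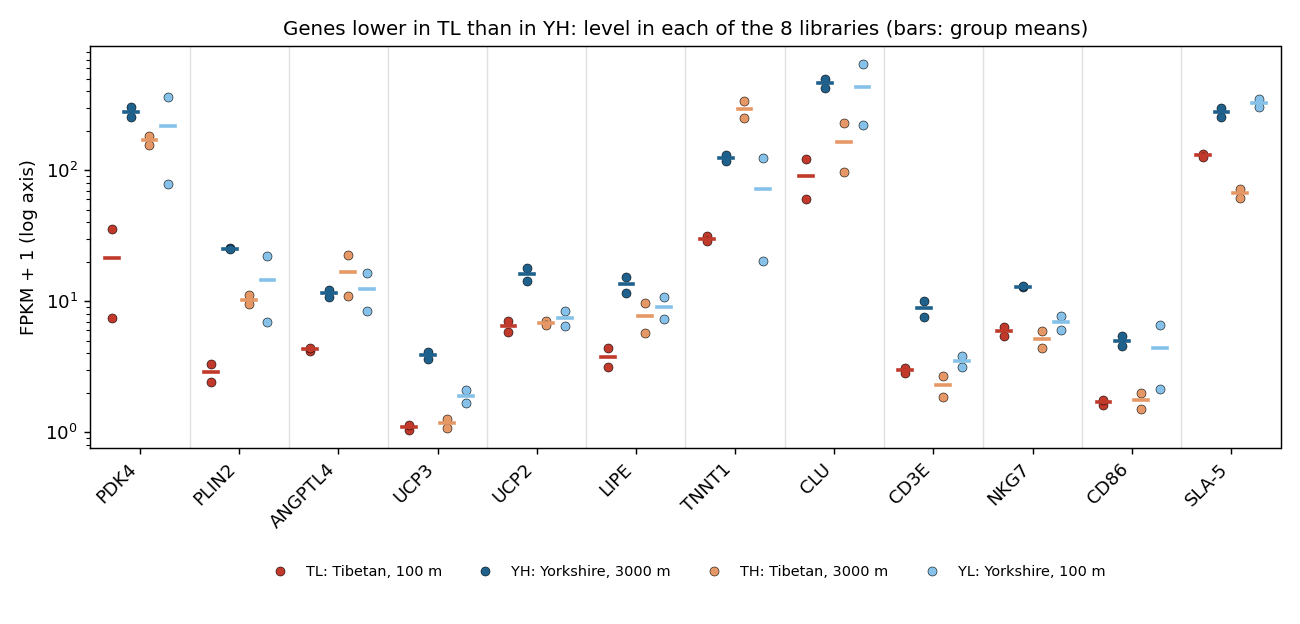
FPKM + 1 on a log axis of genes with lower values in TL, 1 point per library, for TL, YH, TH and YL, with bars at the group means. The points of TL lie below those of YH for each gene drawn, and PDK4 is drawn although it did not pass the test (adjusted p 0.0602).

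Collagen genes COL3A1, COL1A2 and COL15A1 were higher in TL. Of 48 matrix genes that passed the filter, these 3 were called higher in TL (0.497% of all genes) and 1 was called lower (0.515% of all genes). The median difference was 0.37. The groups did not overlap, with TL higher, in 27 of the 48 (56.2% against 27.0% of all genes), and, with TL lower, in 8 (16.7% against 28.2% of all genes). COL3A1, a fibrillar collagen of soft tissue, was at 213 and 171 FPKM in TL and 52.1 and 68.1 FPKM in YH (log2 difference 1.66, SE 0.19, adjusted p 0.0344). COL1A2, a chain of type I collagen, was at 59.8 and 42.9 FPKM against 17.4 and 17.9 FPKM (log2 difference 1.47, SE 0.18, adjusted p 0.0402). COL15A1, a collagen of the zone beneath basement membranes, was at 77.2 and 70.0 FPKM against 27.9 and 27.1 FPKM (log2 difference 1.39, SE 0.12, adjusted p 0.0224).

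The 3 collagen calls were lost without TL1, without YH2 and, for COL1A2, without YH1, as well as under scaling to the FPKM sum, where the median of the list was 0.03. COL15A1 has a second gene model in the table, at 12.3 and 13.2 FPKM in TL and 6.11 and 8.85 FPKM in YH, which did not pass (adjusted p 0.118), and COL1A1 is likewise split over 2 models. The symbol COL1A2 is also carried by another gene ID. The larger COL1A1 model was at 187 and 124 FPKM in TL and 45.4 and 80.3 FPKM in YH (adjusted p 0.103). Reads may be shared out differently between such models, so their levels are less certain than those of COL3A1.

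THBS4, a matricellular thrombospondin, went the other way, at 1.77 and 1.37 FPKM in TL and 6.36 and 7.27 FPKM in YH (log2 difference -1.61, SE 0.15, adjusted p 0.0272), and lost its call without YH2. The fibroblast markers, which share COL1A1, COL1A2, COL3A1, DCN, LUM, POSTN and FBLN1 with the matrix list, summed to 969 and 771 FPKM in TL and 434 and 525 FPKM in YH. Of the 15 that passed the filter, 10 were higher in TL without overlap (66.7% against 27.0% of all genes) and 2 lower (13.3% against 28.2%). Fibroblast markers outside the matrix list were not called, such as THY1, a surface glycoprotein, at 35.8 and 30.5 FPKM against 13.9 and 18.8 FPKM (adjusted p 0.0674). PDGFRA, the receptor that defines resting cardiac fibroblasts, was at 1.36 and 1.31 FPKM in TL and 1.77 and 2.82 FPKM in YH (adjusted p 0.230). In tissue RNA of this kind, more cells of a type and more RNA per cell cannot be told apart. The part of fibroblast number in the collagen values was not tested.

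Among genes of the contractile apparatus, the cardiac actin gene ACTC1 was higher and MYOT lower in TL. These were the 2 called of 35 sarcomere genes, against 0.497% and 0.515% of all genes called higher and lower, and the median difference was 0.00 (-0.35 under scaling to the FPKM sum). ACTC1 (cardiac alpha-actin), an actin of the thin filament, was at 4818 and 5018 FPKM in TL and 838 and 1276 FPKM in YH, a log2 difference of 2.25 (SE 0.23, adjusted p 0.0282). TH, at 2717 and 2039 FPKM, and YL1, at 1367 FPKM, lay between these groups. The skeletal actin ACTA1, also expressed in heart, was at 9944 and 15576 FPKM in TL and 8212 and 11213 FPKM in YH, with overlapping groups.

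MYOT, a Z-disc protein, was lower in TL, at 86.7 and 94.9 FPKM against 224 and 266 FPKM (log2 difference -1.42, SE 0.14, adjusted p 0.0272), and lost its call without TL1 or YH2. TNNT1 (chr6:54301795-54314510), the troponin T of slow skeletal muscle, was at 30.3 and 27.9 FPKM in TL and 129 and 117 FPKM in YH (log2 difference -2.05, SE 0.13, adjusted p 0.0112). The TH pools had more of it than either group, at 339 and 249 FPKM. Cardiac troponin T, TNNT2, did not follow TNNT1, at 5064 and 5458 FPKM in TL and 5393 and 4718 FPKM in YH (adjusted p 0.867).

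Of 16 genes of natriuretic peptides and cardiac stress, 1 was called higher. The median difference was -0.48 but fell between -0.71 and 0.04 over the settings run, with the sign turned without YH2. This was FHL2, a LIM-domain protein of the Z-disc and nucleus, at 155 and 125 FPKM in TL and 60.4 and 59.9 FPKM in YH (log2 difference 1.20, SE 0.15, adjusted p 0.0386). Its call was lost without TL1, YH1 or YH2 and under scaling to the FPKM sum. The natriuretic peptide genes varied more between pools of a group than between the groups: NPPB, the ventricular peptide, was at 7.75 and 51.7 FPKM in TL and 16.1 and 180 FPKM in YH (adjusted p 0.575), and NPPA, the atrial peptide, at 53.1 and 108 FPKM against 23.1 and 93.1 FPKM (adjusted p 0.592). None of 10 markers of atrial muscle that passed the filter was called. Of the 10, 7 had a positive difference and 3 a negative one. Without overlap, 3 were higher in TL (27.0% of all genes) and 1 was lower (28.2% of all genes). Their list summed to 1602 and 2736 FPKM in TL against 896 and 1203 FPKM in YH. Most of this came from MYL7, the atrial light chain, at 1415 and 2396 FPKM against 576 and 932 FPKM. MYH6, the atrial myosin heavy chain, had the opposite sign with overlapping groups. It was at 75.1 and 161 FPKM in TL and 246 and 135 FPKM in YH (adjusted p 0.387). The part of the sampled chamber in the ACTC1 value was not tested.

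The T and NK cell genes CD3E and NKG7 were higher in YH. Of 17 markers listed in the table, 12 passed the filter. Of the 12, these 2 were called lower in TL (0.515% of all genes) and none higher (0.497% of all genes), and 11 were lower in TL without overlap (28.2% of all genes). The median difference was -0.91 over the 12, and between -1.42 (voom on recovered reads) and -0.61 over the settings run. Of the 12, 3, CD3D, CD3G and ZAP70, passed through YH alone. Over the other 9 the median was -0.85, with 8 lower in TL without overlap and 8 with both YH pools above the other 6 libraries of the series (7.28% of all genes). The summed level of the 17 was 42.0 and 49.9 FPKM in TL, 84.7 and 94.6 FPKM in YH, 38.1 and 24.3 FPKM in TH and 41.9 FPKM in YL1.

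CD3E, a signaling chain of the T cell receptor, was at 2.11 and 1.83 FPKM in TL and 6.604 and 9.08 FPKM in YH (log2 difference -1.56, SE 0.18, adjusted p 0.0354), and lost its call without YH2. NKG7, a granule membrane protein of cytotoxic cells, was at 4.46 and 5.304 FPKM against 11.8 and 11.97 FPKM (log2 difference -1.13, SE 0.14, adjusted p 0.0386), and lost its call without TL1, YH1 or YH2 and under scaling to the FPKM sum. CD8A, the co-receptor of cytotoxic T cells, was at 0.568 and 1.33 FPKM against 3.15 and 3.17 FPKM, and CD4, that of helper T cells, at 1.42 and 1.77 FPKM against 1.86 and 2.19 FPKM. Neither passed, with adjusted p of 0.0712 and 0.443. Outside the list, 4 genes of immune cells were called lower in TL. They were chosen after their values were seen and are not independent evidence. The protease CTSW was at 2.099 and 3.35 against 9.18 and 10.99 FPKM, and the receptor segment TRBC2 at 3.69 and 4.29 against 11.4 and 9.50 FPKM. The others were PTPRCAP and RAC2. PTPRCAP was called in 0 of the 4 fits that left out a library, and CTSW, TRBC2 and RAC2 in 1 each. Of the immunoglobulin genes, IGKC was at 8.19 and 22.5 FPKM in TL and 48.9 and 126 FPKM in YH and did not pass (adjusted p 0.102). IGLV-11, also chosen after its values were seen, was called lower in TL, at 0.450 and 0 FPKM against 3.06 and 2.79 FPKM (log2 difference -1.70, SE 0.21, adjusted p 0.0386), on 2 and 0 reads in TL and 14 and 15 in YH. It passed the filter through YH alone and lost its call without either YH pool.

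Among the pig MHC (SLA) and antigen presentation genes, 16 passed the filter, 12 of these were lower in TL without overlap (75.0% against 28.2% of all genes), and 1 was called. This was SLA-5, a class I gene, at 133 and 125 FPKM in TL and 255 and 299 FPKM in YH (log2 difference -1.09, SE 0.14, adjusted p 0.0411), and its call was lost without TL1, TL2 or YH2 and under scaling to the FPKM sum. Its level was 71.3 and 60.9 FPKM in TH and 351 FPKM in YL1, so that both Tibetan groups lay below both Yorkshire groups. The class I gene SLA-2 had the opposite sign, at 225 and 296 FPKM in TL and 159 and 141 FPKM in YH (adjusted p 0.0940). SLA genes are polymorphic and closely alike, and reads counted against 1 reference haplotype can be shared out differently in the 2 breeds, so single SLA values are uncertain. Both YH pools were above the other 6 libraries in 9 of the 16 (7.28% of all genes), among them the class II gene SLA-DQA1, at 133 and 153 FPKM in YH and 97.8 and 108 FPKM in TL (adjusted p 0.139).

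Of 11 macrophage markers, 6 were lower in TL without overlap (54.5% against 28.2% of all genes) and 2 higher, with a median difference of -0.44 (-0.11 without YH2 and -0.14 with a mean of at least 10 FPKM), and over the 10 without CD86, which passed the filter through YH alone, 5 were lower and the median was -0.40. The list held 1 call, CD86, a co-stimulatory ligand of T cells that is also made by other antigen-presenting cells. It was at 0.624 and 0.775 FPKM in TL and 4.41 and 3.54 FPKM in YH (log2 difference -1.55, SE 0.15, adjusted p 0.0272), and lost its call without YH2. The more general macrophage gene CSF1R was at 4.03 and 3.46 FPKM in TL against 5.48 and 6.06 FPKM in YH (adjusted p 0.127), while C1QA had the opposite sign, at 44.1 and 45.5 FPKM against 33.9 and 34.1 FPKM (adjusted p 0.143). Of 25 complement and coagulation genes, 1 was called, CFI, the protease that inactivates C3b, at 1.91 and 1.87 FPKM in TL and 6.81 and 6.78 FPKM in YH (log2 difference -1.43, SE 0.13, adjusted p 0.0224), and the median of that list was -0.45, but -0.056 without YH2 and -0.16 without a filter on low values. The CFI call was lost without YH2.

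Several of the largest differences lay outside these groups. SLPI (chr17:53167237-53169798), a secreted inhibitor of neutrophil elastase, was at 124 and 135 FPKM in TL and 11.3 and 24.1 FPKM in YH (log2 difference 2.89, SE 0.33, adjusted p 0.0344), with TH at 135 and 113 FPKM, near TL, and YL1 at 14.0 FPKM, near YH. NREP, a neuronal and repair-associated peptide, was at 210 and 161 FPKM in TL and 25.6 and 18.0 FPKM in YH (log2 difference 3.04, SE 0.22, adjusted p 0.0163). TMEM163, a zinc-transporting membrane protein, was at 7.94 and 11.8 FPKM against 0.235 and 0.220 FPKM (log2 difference 3.13, SE 0.20, adjusted p 0.0129), on 6 reads in each YH pool. DDC, which makes dopamine and serotonin from their precursors, was at 8.74 and 13.3 FPKM against 0.240 and 0.384 FPKM (log2 difference 3.17, SE 0.22, adjusted p 0.0147).

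In these 4 genes TL lay above YH without overlap. In pig MCT7 names a tryptase of mast cells, and it was at 18.3 and 8.14 FPKM in TL and 0.484 and 0.649 FPKM in YH (log2 difference 3.09, SE 0.35, adjusted p 0.0344), and lost its call without either YH pool. Of the 9 other mast cell and neutrophil markers listed, 2 passed the filter and neither was called, and the 9 summed to 6.00 and 7.12 FPKM in TL and 6.65 and 14.6 FPKM in YH. FGF7, a growth factor made by fibroblasts for epithelium, was at 8.31 and 10.6 FPKM against 0.486 and 0.501 FPKM, but its gene model at chr1:135992857-135993148 is short and these values rest on 17 and 25 reads in TL and 1 read in each YH pool, so no fold is given. TMEM163, DDC, MCT7 and FGF7 reached 1 FPKM, among the 4 libraries of TL and YH, in those of TL alone and so entered the comparison through the group where they are high.

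Among the genes lower in TL, CLU, the secreted chaperone clusterin, was at 121 and 58.9 FPKM in TL and 423 and 501 FPKM in YH (log2 difference -2.43, SE 0.34, adjusted p 0.0470), and lost its call without either YH pool, as did the cadherin gene CDHR1, at 2.11 and 0.877 FPKM against 10.8 and 11.4 FPKM (log2 difference -2.33, SE 0.25, adjusted p 0.0327). Among genes with a symbol, an unadjusted p under 0.01 and no overlap, HOOK2, AQP7, MT1A and IGLV-3 were also in the 10 most negative differences and did not pass, with adjusted p of 0.0532, 0.0522, 0.0712 and 0.0565. AQP7, a water and glycerol channel that lets glycerol leave fat stores, was at 7.35 and 11.9 FPKM in TL and 50.4 and 32.0 FPKM in YH. MT1A rested on 0 and 1 reads in TL and 10 and 37 reads in YH.

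Chosen after their values were seen, 2 genes of autophagy were called lower in TL: GABARAPL1, which coats the autophagosome membrane, at 100 and 141 FPKM in TL and 369 and 321 FPKM in YH (log2 difference -1.53, SE 0.20, adjusted p 0.0412), and WIPI1, which marks the forming membrane, at 8.35 and 10.3 FPKM against 32.4 and 29.6 FPKM (log2 difference -1.64, SE 0.15, adjusted p 0.0224). Without YH2 both calls were lost, and that of GABARAPL1 also without TL1 or YH1. DHRS4, a carbonyl reductase of retinoid metabolism, was at 176 and 184 FPKM in TL and 749 and 627 FPKM in YH (log2 difference -1.92, SE 0.14, adjusted p 0.0173), a call that remained when any 1 library was left out. The deubiquitinase OTUD1, at 89.0 and 78.4 FPKM in TL and 10.1 and 15.9 FPKM in YH (log2 difference 2.63, SE 0.22, adjusted p 0.0207), and the protease MMP11, at 42.1 and 44.9 FPKM against 12.8 and 14.0 FPKM (log2 difference 1.63, SE 0.13, adjusted p 0.0177), were called higher in TL. The MMP11 call was lost under scaling to the FPKM sum. SLC25A34, a mitochondrial carrier, was lower in TL, at 6.36 and 6.78 FPKM against 34.9 and 22.7 FPKM (log2 difference -1.95, SE 0.22, adjusted p 0.0339). On chromosome Y, 2 genes were called higher in TL: the RNA helicase DDX3Y, at 26.4 and 22.0 FPKM in TL and 10.47 and 9.93 FPKM in YH (log2 difference 1.16, SE 0.14, adjusted p 0.0386), and the copy of the translation factor gene EIF1AX there, at 31.9 and 27.8 FPKM against 9.94 and 12.3 FPKM (log2 difference 1.35, SE 0.16, adjusted p 0.0354). Both calls were lost without TL1 or YH2 and under scaling to the FPKM sum, and that of DDX3Y also without YH1. Copies on the X chromosome can share reads with both.

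None of 29 genes of oxygen sensing and HIF-1 targets was called. Without overlap, 8 were higher in TL (27.6% against 27.0% of all genes) and 5 lower (17.2% against 28.2%). The median difference was 0.04, between -0.23 and 0.12 over the settings run. With 0.497% and 0.515% of all genes called, lists of this size can hold no call without departing from the table as a whole. The oxygen-regulated factor HIF1A was at 10.6 and 12.1 FPKM in TL and 9.60 and 12.04 FPKM in YH, and EPAS1, its paralog, at 60.3 and 64.6 FPKM against 59.9 and 50.7 FPKM. VEGFA, the HIF target that drives vessel growth, was at 53.3 and 86.5 FPKM against 82.0 and 77.4 FPKM, with overlapping groups. None of 29 glycolysis genes, 23 tricarboxylic acid cycle genes, 27 calcium and ion channel genes, 13 mitochondrially encoded genes, 37 proteasome genes, 23 heat shock genes and 32 interferon-stimulated genes was called either, and the glycolysis genes held 9 higher and 9 lower in TL without overlap (31.0% each, against 27.0% and 28.2% of all genes). The same held for 14 endothelial, 11 smooth muscle, 4 blood, 4 B cell and 4 Schwann cell or neuron markers. Of 4 liver markers that passed, 1 was called higher in TL, APOA1, the main protein of high-density lipoprotein, at 30.7 and 28.5 FPKM in TL and 12.3 and 12.4 FPKM in YH, but the table holds 2 gene IDs at its position and the values are uncertain. Over the whole table, 2411 genes had an unadjusted limma p under 0.05.

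The 72 nuclear genes of oxidative phosphorylation had no call. Of these, 39 were higher in TL without overlap (54.2% against 27.0% of all genes) and 2 lower (2.78% against 28.2%). The small median difference of 0.13 turned to -0.22 under scaling to the FPKM sum. Of 78 cytosolic ribosomal protein genes, 32 were higher in TL without overlap (41.0% against 27.0% of all genes) and 6 lower (7.69% against 28.2%). Their median of 0.09 turned to -0.25 under the same scaling. Of the 78, 1, labelled RPSA, was called lower in TL, at 3.56 and 3.66 FPKM against 9.60 and 9.66 FPKM in YH. Its model spans chr6:112903784-113226657, while the 86 listed entries summed to 44715 and 44792 FPKM in TL. Whether this weakly expressed model is the ribosomal gene is uncertain. Of 28 antioxidant and redox genes, 14 were lower in TL without overlap, or 12 of 26 without the 2 that passed the filter through YH alone, and 1 was called, GCLM, a subunit of the enzyme that limits glutathione synthesis, at 1.78 and 1.61 FPKM in TL and 4.61 and 5.13 FPKM in YH (log2 difference -1.12, SE 0.14, adjusted p 0.0386). The GCLM call was lost without each of the 4 libraries and under scaling to the FPKM sum.

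**Figure D4:**
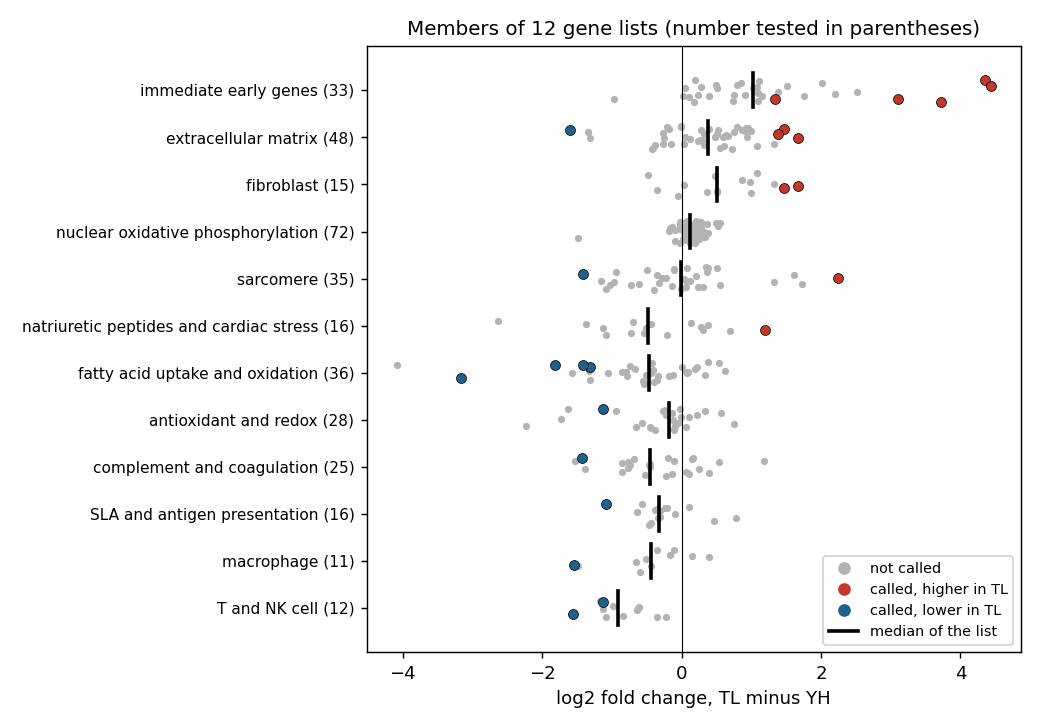
Differences between TL and YH in log2(FPKM + 1) for the members of 12 gene lists that passed the filter, 1 point per gene, with called genes marked and the median drawn for each list. Immediate early genes lie mostly to the right of 0 (median 1.02), and the lists of T and NK cells (median -0.91) and of fatty acid use (median -0.47) mostly to the left.

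The study listed 21 genes of interest, chosen on these samples, all of which passed the filter. Of these, ATF3, FOS and COL3A1 were called higher and DPP4, a peptidase that cleaves incretins and other peptides, lower in TL, at 16.5 and 20.3 FPKM in TL and 41.9 and 48.9 FPKM in YH (log2 difference -1.26, SE 0.16, adjusted p 0.0403). The DPP4 call was lost without TL1 or YH2. Since the list was chosen on these samples, this count is not independent evidence. TGFB2, a growth factor of the same list, was at 24.9 and 56.8 FPKM in TL and 12.3 and 5.34 FPKM in YH and did not pass (adjusted p 0.0994), and its difference was 2.08 in FPKM but -0.26 in reads. Among 8 genes also assayed by RT-qPCR, FOS was called higher and SLA-5 and DPP4 lower in TL.

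The levels of the called genes in the other groups were set beside these values, since TH against YL holds the same breeds at exchanged altitudes. In 83 of the 112 called genes (74.1%), the difference between TH and YL had the same sign as that between TL and YH, which was so for 59.4% of all genes tested. With YL1 alone it was 88 genes (78.6%), against 59.6% of all genes. Both TH pools lay beyond YL1 on the side of TL in 74 of the 112, a state found in 38.6% of all genes, and on the opposite side in 18, found in 24.7% of all genes. The other 20 were mixed.

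A sign does not separate breed from altitude, since a gene that is high in 1 group alone can also give a shared sign. Genes whose TH pools lay beyond both YL pools on the side of TL, such as FOS, ATF3, NR4A1, SLPI, FGF7, ACTC1, COL1A2 and COL15A1 among those higher and SLA-5, NKG7, CD3E, CD86, UCP3, DPP4 and GABARAPL1 among those lower in TL, numbered 54. FOS was at 53.8 and 85.5 FPKM in TH, near or above the TL pools, and at 4.30 FPKM in YL1, near the YH pools. The opposite side held for NOR-1, PLIN2, ANGPTL4, FHL2 and TNNT1, among others, when TH was compared with YL1, and for 9 of the 112 when it was compared with both YL pools.

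The test of whether the difference between TL and YH itself differed from that between TH and YL called no gene in the limma fit of all 8 libraries, where 804 genes had an unadjusted p under 0.05 and the smallest adjusted p was 0.226. In the fit of 7 libraries, without YL2, 2 genes passed. The sign of TH against YL is therefore a description for each named gene.

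Of the 55 genes called higher in TL, 28 had both TL pools above the other 6 libraries (5.17% of all genes tested had this), and 19 had both YH pools below the other 6 (4.35% of all). Of the 57 called lower in TL, 29 had both YH pools above the other 6, against 7.28% of all genes, and 13 had both TL pools below the other 6, against 3.72%. These counts use the contrast that chose the genes and are descriptions. NOR-1, ATF3, NR4A1 and ACTC1 had both TL pools above every other library, and CD3E and NKG7 had both YH pools above every other library. Of the 55, 17 passed the FPKM filter through TL alone, and of the 57, 12 passed through YH alone.

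**Figure D5:**
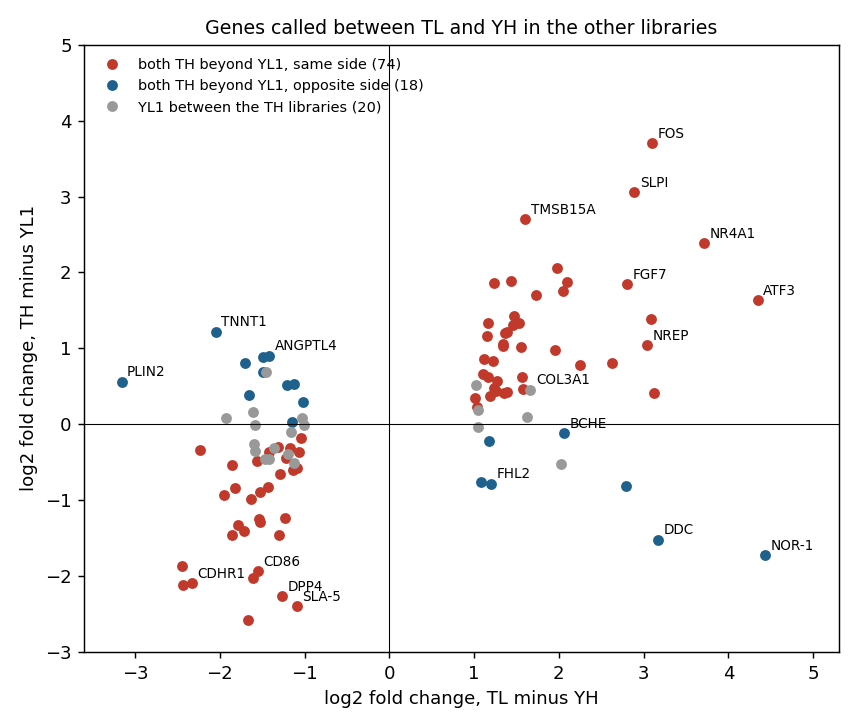
Difference between TH and YL1 (vertical axis) against that between TL and YH (horizontal axis), both in log2(FPKM + 1), for the 112 called genes, 1 point per gene. In 88 of the 112 both differences have the same sign, and NOR-1, PLIN2 and TNNT1 are among those that do not.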

How the data were processed

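RNA of pig heart was sequenced by the study on a HiSeq 2000 as paired reads, from pools of RNA, and 2 pools per group were deposited as FPKM and as read counts scaled by 1 factor per library. Per the labels and the study's methods, the authors aligned reads with TopHat2 2.0.9 to the pig genome Sscrofa 10.2, computed FPKM with Cufflinks and tested with DESeq 1.10.1. The deposited FPKM values are per kilobase of exon and relative to the fragments mapped, and the deposited scaled counts are treated here as a signal, used for the filter on 10 reads and, divided by their step, as reads behind a value. The 8 columns of group means and ratios were not used.

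Differences were tested with limma 3.58.1 (R 4.3.3, trended eBayes) on log2(FPKM + 1), in the 4 libraries of TL and YH without a covariate, with Benjamini-Hochberg adjustment over 11064 genes. The added 1 shrinks the differences of genes with low levels. FPKM per read departed more from gene to gene in YH2 than in the other libraries (SD of log2 0.250 against 0.031 to 0.154). The script was tested on simulated data. Of the genes listed, 14256 carry a symbol in the deposited file, 1025 were matched to one by gene ID, and 3694 had none. Coordinates are those of the table. YL files were assigned by title, since the description of these samples points elsewhere.

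The members and gene lists were chosen with earlier results of these data known. Named genes were the 10 largest differences each way among genes with a symbol, an unadjusted p under 0.01 and no overlap between groups, all called and up to 4 abundant members of each list, and the genes of the study's table and RT-qPCR. Other pseudocounts, filters, scalings, library sets and a voom fit of recovered reads were tried.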

Additional observations from a re-analysis of the deposited data

Results flagged for a closer look

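In the fit of 7 libraries, without YL2, the difference between TL and YH departed from that between TH and YL in 2 genes. YL is then the lone pool YL1, assumed to vary like the other groups. TMP-CH242-74M17.4 differed by 3.91 on the log2 scale (SE 0.31, limma adjusted p 0.0354), since TL was below YH by a small amount (-0.43) and TH below YL1 by much (-4.34). It was at 1.14 and 0.74 FPKM in TL, 1.82 and 1.40 FPKM in YH, 0.11 and 0.12 FPKM in TH and 21.7 FPKM in YL1. With all 8 libraries its difference was 3.36 and did not pass (adjusted p 0.226). ENSSSCG00000027499 differed by 3.61 (SE 0.28, adjusted p 0.0354), with TL above YH by 2.79 and TH against YL1 at -0.82. It was at 9.58 and 9.93 FPKM in TL, 0.57 and 0.53 FPKM in YH, 1.27 and 1.16 FPKM in TH and 2.90 FPKM in YL1, and did not pass with all 8 libraries (adjusted p 0.311). Among TL and YH it passed the filter of 1 FPKM through TL alone, so its difference there had to be positive.

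In 4 called genes with a symbol, every library of TL lay on one side of YH and every library of TH on the opposite side of YL. The differences of differences, in the fit of all 8 libraries, were 2.75 for BCHE, a cholinesterase (adjusted p 0.396), 7.11 for DDC (adjusted p 0.449), -4.58 for TNNT1 (adjusted p 0.449) and -2.34 for C4ORF46 (adjusted p 0.311), so none passed the test. YL2 is the library with kidney transcripts, and DDC was at 247 FPKM there against 7.69 FPKM in YL1. Without YL2 the values were 4.69 for DDC, 2.18 for BCHE, -3.27 for TNNT1 and -2.04 for C4ORF46.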

How the results depend on the processing

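Of the 112 calls between TL and YH, 0 remained in the limma fit without a filter on low values (3278 genes at an unadjusted p under 0.05) or at an adjusted p under 0.01, 45 with a mean of at least 10 FPKM, 2 in a fit of all 8 libraries, 18 in a fit of 7 without YL2, and 44 genes were called by voom on recovered reads, chosen after seeing the data, of which 41 were among the 112. Taking unadjusted p-values under 0.01, with the fold kept, gave 281. Leaving out a library gave 27 calls without YH2 to 177 without TL2, where the lone pool left in a group is assumed to vary like the other group. Across these settings the cause was not tested, except that the unfiltered fit tests 18975 genes and the stricter filter 4020. No named gene that was called changed sign in any setting run.

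The replicate block raised the count to 272, with all 112 among them. The numbers do not pair the samples: deviations of TL1 and YH1 from their group means correlated at 0.034, and no label ties the numbers to a shared batch. The test of the difference between contrasts called 0 genes with 8 libraries and 2 without YL2. Fits with edgeR and DESeq2, intended as a comparison, were not run. The deposited counts are scaled, and the reads recovered from them were not taken as certain whole counts, though the voom fit used them. With 2 pools a group and genes that rest on few reads, values near 1 FPKM are the least certain.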
